A study of Mus musculus with 18 samples.

Results

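Astrocytes hold their shape with a network of intermediate filaments, and 5 genes of that network were followed here in cultured mouse astrocytes. Gfap, Vim, Nes and Synm encode filament proteins and Plec encodes the linker plectin. They were taken by gene symbol, from a list made with earlier results of these data known, and are 5 of the 26301 genes of the deposited count table, where their Entrez identifiers are 14580 for Gfap, 22352 for Vim, 18008 for Nes, 233335 for Synm and 18810 for Plec. All 5 had reads in all 18 libraries and all 5 passed the filter on low counts, as did 16539 genes in total.

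The study asked, by its title, which astrocyte genes respond to contact with neurons. Astrocytes from newborn (P0) mouse cortex were grown for 2 weeks in serum medium, moved to serum-free medium at confluence, and then either given P0 neurons of the hippocampus labelled with TdTomato, a red fluorescent protein (the co-cultures), or kept alone. At day 2, 4 or 7 the plates were harvested and cells without TdTomato were separated by flow sorting, the gate for them being set on astrocytes that never met neurons, and total RNA was sequenced after removal of ribosomal RNA. The labels give 6 groups of 3 libraries: co-culture at day 2, 4 and 7, and astrocytes alone at day 2, 4 and 7. The labels name no strain for the astrocytes, and they do not say whether several animals were pooled. All 6 libraries of a replicate number carry 1 date in the labels, and the 3 numbers carry 3 dates. What the date marks is not stated. A co-culture library and the library of astrocytes alone of the same number and day form a pair, which gives 9 pairs.

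Intermediate filaments are ropes of coiled proteins that resist stretch, and most of their proteins fall into families that assemble with each other. GFAP is the filament protein that marks mature astrocytes and that accumulates when astrocytes react to injury. Vimentin is shared with immature astrocytes and with many other cell types. Nestin, typical of neural progenitors and of immature or reactive astrocytes, cannot build filaments by itself and joins those of vimentin. Synemin likewise needs a partner protein, and plectin ties the filaments to actin, microtubules and membrane junctions.

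The promoter windows of Gfap and Vim are shown because Gfap, unlike Vim, was called between dates, and their ratio differed between dates as given below. The sequences are RefSeq's, on GRCm38.p6, from 250 bases before to 50 bases after the annotated start. The authors' reads were placed on another build, so these coordinates belong to GRCm38 only. The Gfap window is chr11:102897151-102897450 on the minus strand, and the Vim window is chr2:13574061-13574360 on the plus strand. Capitals mark matches on either strand to any of 5 motifs: the STAT motif TTCNNNGAA, the AP-1 motif TGANTCA, the TATA box TATAAA, the CCAAT box CCAAT and the GC box GGGCGG. The Gfap window held 1 match, TTCCAGGAA, which reads as the STAT motif on both strands and begins 2 bases before the start.
Gfap: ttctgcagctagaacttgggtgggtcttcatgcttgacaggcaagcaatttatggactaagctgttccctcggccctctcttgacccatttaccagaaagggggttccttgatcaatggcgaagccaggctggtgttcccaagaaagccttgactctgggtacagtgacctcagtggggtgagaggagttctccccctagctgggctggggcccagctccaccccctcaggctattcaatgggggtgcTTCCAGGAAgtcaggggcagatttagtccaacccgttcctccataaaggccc
Vim: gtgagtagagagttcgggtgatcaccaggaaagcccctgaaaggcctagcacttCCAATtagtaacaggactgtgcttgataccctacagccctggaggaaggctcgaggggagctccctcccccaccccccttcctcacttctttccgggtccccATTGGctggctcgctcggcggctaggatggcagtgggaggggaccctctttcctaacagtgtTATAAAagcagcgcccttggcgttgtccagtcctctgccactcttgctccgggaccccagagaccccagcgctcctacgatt
Of 32544 such windows in the mouse table, 8.33% held the STAT motif, 7.79% the AP-1 motif, 13.6% the TATA box, 37.4% the CCAAT box and 35.9% the GC box. The Vim window held a TATA box that begins 32 bases before the start and CCAAT boxes at 196 and 94 bases before it. The Gfap window had 3 CpG dinucleotides and the Vim window 11, against a median of 7 over all windows. The Nes window on chromosome 3 held 2 GC boxes and the Synm window on chromosome 7 held 1 CCAAT box. A match is a string of letters and was not tested as a binding site. Windows were matched for 4 of the 5 genes, and Plec lies on chromosome 15.

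Total counts ran from 3242459 to 32623556 reads per library. Replicate 1 of astrocytes alone at day 2 was the smallest, with 92.5% of its reads on 1 gene and a TMM factor (the scaling of library size by edgeR) of 0.0459. The day 7 co-culture's replicate 1 had 8966485 reads, with 40.5% on 1 gene, and a factor of 0.665. In the other 16 libraries the top gene took 5.35% to 18.4% of the reads. Levels below are CPM, read counts scaled to the library size with the TMM factors, and results that rest on those 2 libraries are also given without these 2 outlying libraries, for the 16 others. A count of 3 reads, taken as the detection floor, came to 20.2 CPM and 0.504 CPM in these libraries and to between 0.0743 and 0.179 CPM elsewhere. It covers counting error only. Of 15 markers that define astrocytes, 14 passed the filter, and Slc1a3, Aqp4 and Clu were the most abundant of them. The tested neuron markers summed to 163 to 443 CPM per library. No library had a read for the endothelial marker Cldn5 or the mural marker Kcnj8.

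Vim had the highest level of the 5 genes in every library. Compared per length (CPM divided by the kilobases of merged exon in the GENCODE M21 annotation), its median was 668 CPM per kb over 18 libraries, against 117 CPM per kb for Gfap, 114 CPM per kb for Nes, 21.7 CPM per kb for Plec and 6.28 CPM per kb for Synm. The order Vim, Gfap, Nes, Plec, Synm held in 11 libraries. In 6 libraries Nes stood above Gfap, and in 3 of these Plec did too. Gfap and Nes are therefore neighbours in this order whose ranges overlap, at 14.3 to 465 CPM per kb for Gfap and 46.8 to 194 CPM per kb for Nes. By CPM, without length, Vim had a median rank of 10 among the 16539 tested genes, Nes 63, Gfap 135, Plec 179.5 and Synm 3198.

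The 5 genes differed in how far they varied. The highest library was 32.5 times the lowest for Gfap, 11.9 times for Synm, 5.02 times for Vim, 4.14 times for Nes and 3.12 times for Plec. Over the 16 libraries these ratios were 29.0 for Gfap, 4.04 for Synm, 3.25 for Vim, 3.45 for Nes and 2.22 for Plec. Gfap kept nearly all of its spread, while that of Synm shrank to about the size seen for Nes.

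The spread of Gfap lay between dates. At day 2 Gfap had 108, 460.3 and 1467 CPM in replicates 1, 2 and 3 of the co-culture, and 60.5, 526 and 1245 CPM in replicates 1, 2 and 3 of astrocytes alone. At day 4 it had 152, 524 and 1781 CPM in co-culture and 67.6, 554 and 1396 CPM in astrocytes alone. At day 7 it had 232, 387 and 1963 CPM in co-culture and 176, 457 and 1591 CPM in astrocytes alone. In all 6 groups replicate 1 was lowest and replicate 3 highest. The lowest of these values rests on 9 reads, with an exact Poisson 95% interval of 4.12 to 17.1 reads, and every other library had far more. The 6 libraries of replicate 1 ranged from 60.5 to 232 CPM with a median of 130 CPM, those of replicate 2 from 387 to 554 CPM with a median of 492 CPM, and those of replicate 3 from 1245 to 1963 CPM with a median of 1529 CPM. The 3 ranges did not overlap, whatever the day and with or without neurons.

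In a model with a mean per group and a term per replicate number, the F test of edgeR's quasi-likelihood method across the 3 dates called 953 of 16539 genes, or 5.76%, at a Benjamini-Hochberg adjusted p under 0.05. Gfap was the 1 member of 5 among them, and it ranked first of all tested genes (edgeR, adjusted p = 9.27e-06). Gfap in replicate 2 stood 1.96 above replicate 1 on the log2 scale (SE 0.27, edgeR adjusted p = 0.0018). Replicate 3 stood 3.61 above replicate 1 (SE 0.29) and 1.64 above replicate 2 (SE 0.26, edgeR adjusted p = 0.0018). These pairwise contrasts called 1.46% of genes for replicate 2 against 1, 3.62% for replicate 3 against 1 and 3.94% for replicate 3 against 2. Without the 2 outlying libraries Gfap ranked 6 of 17092 genes, and the difference of replicate 3 against 1 was 3.72 (SE 0.28). The spread of Gfap within groups, as edgeR's biological coefficient of variation, was 0.316 with the date term and 0.915 without it, and the median over all genes was 0.515 with the term and 0.569 without it. Libraries of 1 date are not shown to be separate preparations, so these p-values compare these 3 dates. In RNA from sorted cells in bulk, fewer cells that make a transcript and less of it per cell cannot be told apart.

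**Figure D1:**
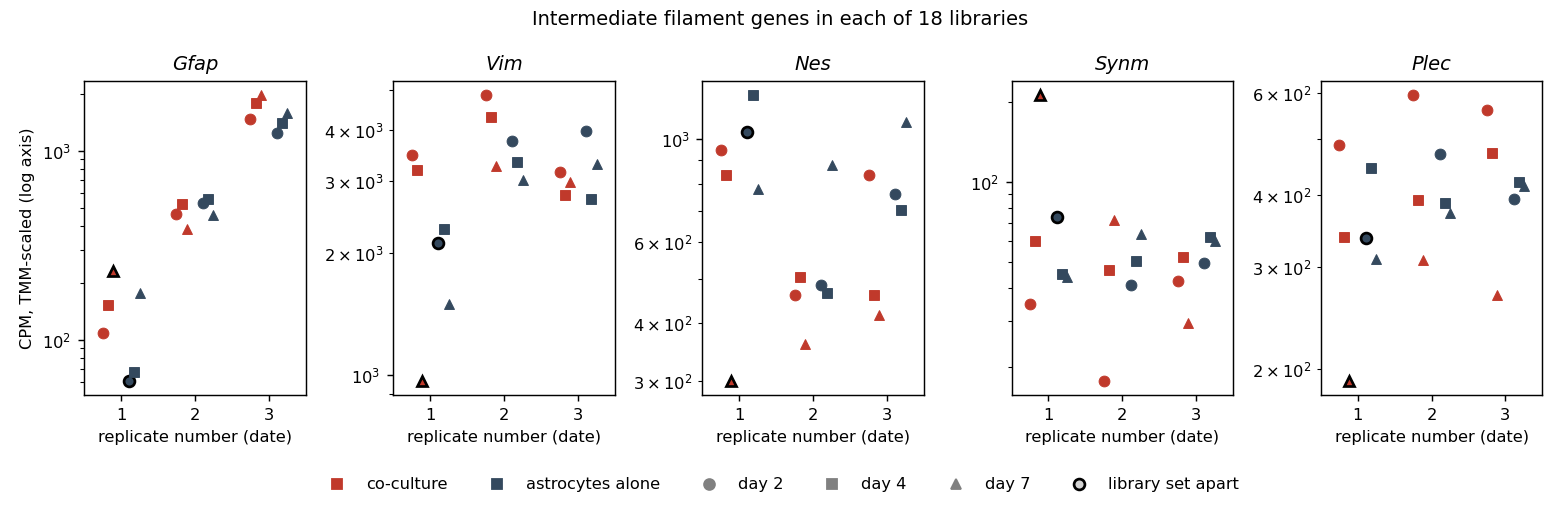
CPM on the TMM scale (log axis) for each of the 5 genes, by replicate number, in co-culture (red, left) and in astrocytes alone (dark, right), with the day as the marker shape and a black edge on replicate 1 of the day 7 co-culture and of astrocytes alone at day 2. Gfap lies in 3 bands that do not overlap, between 60.5 and 232, 387 and 554, and 1245 and 1963 CPM, while the dates overlap in the other 4 genes.

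The other 4 genes were not called between dates. Vim had 969 to 3472 CPM in replicate 1, 3021 to 4865 CPM in replicate 2 and 2707 to 3981 CPM in replicate 3 (edgeR adjusted p = 0.17). Nes had 300.4 to 1245 CPM, 361 to 879.8 CPM and 416 to 1089.9 CPM in replicates 1, 2 and 3 (edgeR adjusted p = 0.26). Plec had 190.5 to 487 CPM, 308 to 594 CPM and 268 to 560.3 CPM (edgeR adjusted p = 0.56), and Synm had 34.7 to 212 CPM, 17.8 to 71.8 CPM and 29.4 to 62.0 CPM in the same order (edgeR adjusted p = 0.63). Their ranges overlapped between all 3 dates. Replicate 3 against 1 gave log2 differences of 0.58 for Vim, 0.29 for Plec, -0.26 for Nes and -0.35 for Synm, against 3.61 for Gfap.

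How Gfap stood to Vim and Nes depended on the date. A ratio of the reads of 2 genes within 1 library does not depend on how libraries are scaled. In Gfap reads per Vim read, replicate 1 gave 0.0287 to 0.239, replicate 2 gave 0.0946 to 0.166 and replicate 3 gave 0.313 to 0.657. The ratio of replicate 3 lay above that of replicate 1 in 6 of 6 groups, by a mean of 3.12 ± 1.10 on the log2 scale (SD, n = 6), and above that of replicate 2 in 6 of 6 groups, by 1.94 ± 0.53 (SD, n = 6). Matched by group, an exact two-sided sign-flip permutation test gave p = 0.03125 for both, the smallest p that 6 groups allow, and 0.0352 after adjustment over 9 date comparisons of ratios. The test was added after seeing the data. The 6 groups of a replicate number share 1 date, so here and for the ratios below its p compares these dates, not independent repeats. Replicate 2 lay above replicate 1 by 1.18 ± 1.31 in 5 of 6 groups (SD, n = 6, exact p = 0.094). The exception was the day 7 co-culture, where replicate 1, an outlying library, had 0.239 and replicate 2 had 0.118. Without the 2 outlying libraries the range of replicate 1 was 0.0295 to 0.118. Replicate 2 then lay above it by 1.45 and replicate 3 by 3.45, each in 4 of 4 groups, where the exact test cannot go below 0.125.

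Against Nes, Gfap again stood highest in replicate 3. Reads of Gfap per read of Nes were 0.0543 to 0.772 in replicate 1, 0.520 to 1.19 in replicate 2 and 1.46 to 4.72 in replicate 3, so replicates 1 and 2 overlapped and replicate 3 lay above both. That overlap rests on replicate 1 of the day 7 co-culture. Over the 16 libraries replicate 1 had 0.0543 to 0.225, and the 3 dates did not overlap. Replicate 2 stood 2.66 ± 1.60 above replicate 1, replicate 3 stood 3.94 ± 1.08 above replicate 1, and replicate 3 stood 1.28 ± 0.66 above replicate 2 on the log2 scale (SD, n = 6, 6 of 6 groups each, exact permutation p = 0.03125 each, 0.0352 adjusted). Vim relative to Nes was highest in replicate 2. Its log2 ratio was higher than in replicate 1 by 1.49 ± 0.43 in replicate 2 and by 0.82 ± 0.47 in replicate 3, and replicate 3 was lower than replicate 2, at -0.66 ± 0.47 (SD, n = 6, exact permutation p = 0.03125 each, 0.0352 adjusted).

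Within a date, Gfap and Nes ran in opposite directions in replicate 1. Over its 6 libraries, Pearson's r of log2 CPM was -0.81 (exact permutation p = 0.00694, 0.0417 adjusted over 6 relations) and Spearman's rho was -0.94 (exact p = 0.0167, 0.10 adjusted). Leaving out the 2 libraries farthest from the median of Nes gave r = -0.97. The call was lost with upper-quartile scaling (r = -0.75, exact p adjusted = 0.24). It was also lost without the 2 outlying libraries, both of replicate 1, where its 4 other libraries gave r = -0.99 (exact p = 0.0417, the smallest that 4 libraries allow, 0.25 adjusted). In replicates 2 and 3 the r of Gfap and Nes was 0.17 (exact p = 0.79) and -0.65 (exact p = 0.17), and rho was 0.20 (exact p = 0.71) and -0.49 (exact p = 0.36). Leaving out the 2 farthest libraries in the same way gave r = 0.33 in replicate 2 and r = 0.77 in replicate 3, where the sign turned. For Gfap and Vim r was -0.50, 0.21 and -0.55 in replicates 1, 2 and 3 (exact p = 0.32, 0.70 and 0.26), and rho was -0.49, 0.37 and -0.31 (exact p = 0.36, 0.50 and 0.56). The 6 libraries of a date differ in day and in the presence of neurons, so these r mix both, and whether r differs between dates was not tested.

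**Figure D2:**
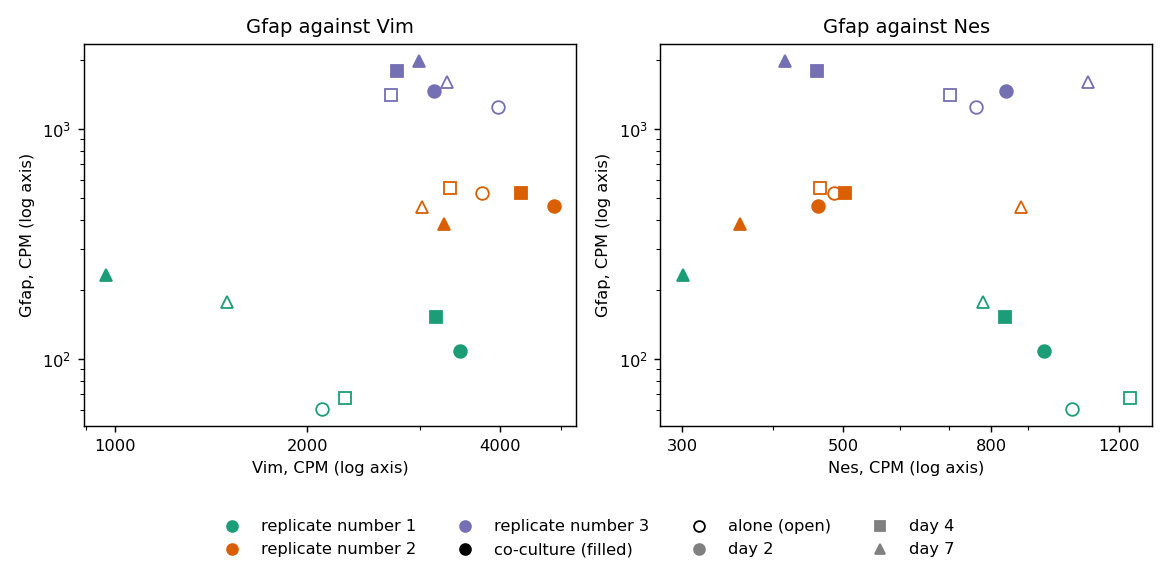
Gfap CPM against Vim CPM (left) and Nes CPM (right), both axes logarithmic, 1 point per library, coloured by replicate number, filled for co-culture and open for astrocytes alone, with the day as the marker shape. The dates form 3 bands of Gfap at 60.5 to 232, 387 to 554 and 1245 to 1963 CPM that span overlapping levels of Vim and Nes, and in replicate 1 Gfap is lower where Nes is higher (r = -0.81).

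Of 14 other tested genes that mark astrocytes, 8 were called higher in replicate 3 than in replicate 1, against 1.72% of all genes called higher there. All 14 had a positive log2 difference there, with a median of 1.23 against -0.02 over all genes. Aldoc, a glycolytic enzyme of astrocytes, had 6.72 to 66.2, 33.2 to 67.1 and 158 to 304 CPM in replicates 1, 2 and 3, and stood 3.47 higher in replicate 3 than in replicate 1 (SE 0.41, edgeR adjusted p = 0.00015). Ndrg2, another marker of mature astrocytes, stood 2.62 higher (SE 0.34, edgeR adjusted p = 0.00029). The glutamate transporters Slc1a3 and Slc1a2 stood 1.40 (SE 0.24) and 1.93 (SE 0.41) higher, the water channel Aqp4 1.94 higher (SE 0.36), glutamine synthetase Glul 1.26 higher (SE 0.25), the transcription factor Sox9 1.19 higher (SE 0.22) and the acyl-CoA synthetase Acsbg1 0.97 higher (SE 0.23). Across all 3 dates the F test called these 8 and also Clu and Gja1, which makes 10 of 14, against 5.76% of all genes. Over the 16 libraries 15 markers were tested, all 15 were positive in replicate 3 against 1 and 11 were called across dates, against 8.93% of all genes. The summed level of the tested markers was 854 to 3032 CPM, 2497 to 6071 CPM and 4347 to 5944 CPM in replicates 1, 2 and 3. Their sums in replicates 2 and 3 overlapped, while the ranges of Gfap did not. Single markers lay apart between these dates too, such as Aldoc above and Slc1a3, at 171 to 446 CPM and 775 to 1067 CPM. So did Ndrg2, Acsbg1 and Gja1, while Clu, Aqp4, Slc1a2, Glul and Sox9 overlapped.

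**Figure D3:**
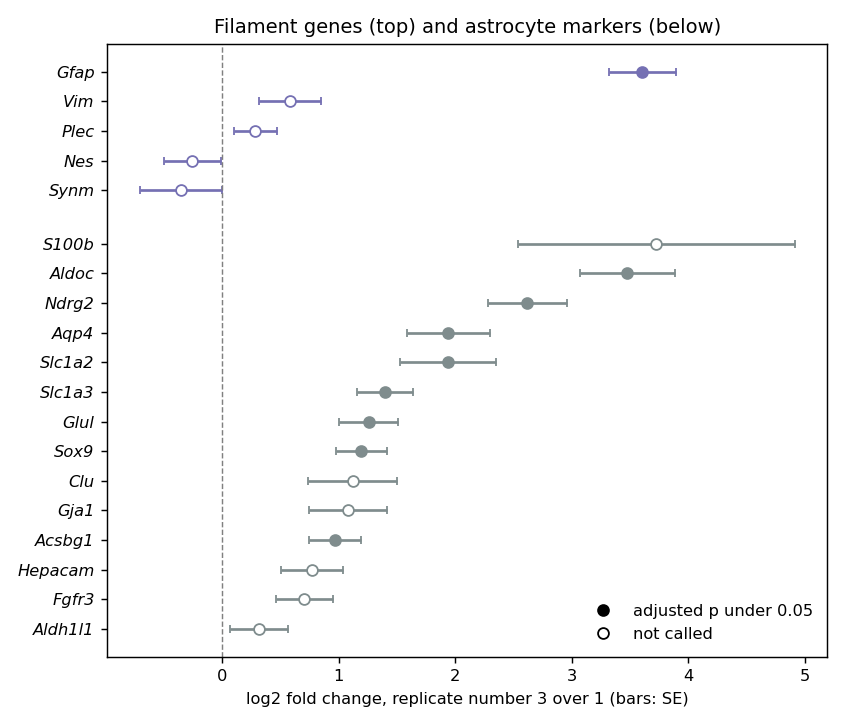
Log2 fold change of replicate number 3 over 1, with its SE as a bar, for the 5 filament genes (top) and 14 astrocyte markers (below), filled where the edgeR adjusted p was under 0.05. Gfap, at 3.61, is the filament gene that was called. Vim at 0.58, Plec at 0.29, Nes at -0.26 and Synm at -0.35 were not called, and all 14 markers lie to the right of 0.

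Markers of other cells were read across the 3 dates too, where 5.76% of all genes were called. Of 6 tested endothelial markers 0 were called. Of 14 microglia and macrophage markers, 11 were called across dates, and their sum was 6.16 to 256 CPM, 103 to 435 CPM and 4.16 to 13.2 CPM in replicates 1, 2 and 3. Lyz2, the lysozyme of macrophages, was the most abundant, and no marker of this list lacked reads at any date. Of 12 tested fibroblast and mural markers, 3 were called, the matrix genes Col3a1, Col1a1 and Dcn, each higher in replicate 3 than in replicate 1, by 4.30, 2.80 and 6.51 on the log2 scale. The sums of that list were 72.3 to 1506 CPM, 258 to 722 CPM and 290.1 to 548 CPM. In the neuron list 1 of 11 tested genes was called across dates, Tubb3, a tubulin of neurons, lower in replicate 3 than in replicate 1. That list had 6 positive and 5 negative genes there, with a median of 0.03. In the oligodendrocyte list 1 of 9 tested genes was called, Cnp, a myelin enzyme, higher in replicates 2 and 3 than in replicate 1. That list had 4 positive and 5 negative genes in replicate 2 against 1 (median -0.59). In replicate 3 against 1 it had 7 positive and 2 negative genes (median 0.37). Of the neuron list, the microtubule protein gene Map2 was called higher in replicate 3 than in replicate 2 (log2 difference 1.29, SE 0.35). Map2 was the 1 positive gene of the 11 tested there, and the other 10 were negative. The median of the list was -1.45, against -0.04 over all genes. Of the 10 tested markers of dividing cells Mki67 and Top2a were called, and Mki67 had no read in any library of replicate 2. Most of that list ran the other way, with 8 positive and 2 negative genes in replicate 2 against 1. Its median there was 0.31, against 0.05 over all genes. Top2a had 1.18 to 33.6, 11.1 to 46.0 and 3.48 to 36.5 CPM in replicates 1, 2 and 3. The part of these cells in the differences of Gfap was not tested.

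Regulators of Gfap transcription were read as a list of 37 genes, all of them tested. Across dates 7 were called, against 5.76% of all genes. Lif, a cytokine that acts through gp130 and STAT3, was lower in replicate 3 than in replicate 1 by -2.04 on the log2 scale (SE 0.31, edgeR adjusted p = 0.0011), at 72.4 to 202, 26.6 to 80.2 and 21.2 to 41.1 CPM in replicates 1, 2 and 3. Nfia, a nuclear factor needed for astrocyte differentiation, was higher by 1.13 (SE 0.25, edgeR adjusted p = 0.016), and Sox9 is given above. Nfix, Id3, Fosl2 and Junb were the other 4, and Fosl2 and Junb, which are AP-1 subunits, were lower in replicate 3 than in replicate 2 by -1.70 (SE 0.34) and -1.35 (SE 0.28). The most abundant members, Notch1, the gp130 receptor gene Il6st and Stat3, were not called, with log2 differences of 0.25, 0.63 and 0.38 in replicate 3 against 1. Over the 16 libraries 8 of 37 were called, against 8.93% of all genes.

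The counts for other components of the filament system stand against 5.76% of all genes called across dates, and 8.93% over the 16 libraries. Of 16 further filament genes 7 were tested and 0 called across dates. The most abundant were the lamins Lmna and Lmnb2 and the muscle-type filament gene Sync. Of 13 plakins and linkers 0 were called, with Macf1, Dst and Utrn the most abundant, and over the 16 libraries 2 were called. Of 20 partners and modifiers of filaments, such as the chaperone gene Hspb8, the kinase gene Rock2 and the 14-3-3 gene Ywhaz, 1 was called across dates, the kinase gene Prkca (edgeR adjusted p = 0.0497), and 3 over the 16 libraries.

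The genes whose profile over the 16 libraries was most like that of Gfap, by Pearson's r of log2 CPM among 8925 genes whose log2 CPM averaged 3 or more, included Sparcl1 (r = 0.96) and Olfml1 (r = 0.95). For Vim they were Cxcl14 (r = 0.85), Haus7 (r = 0.84) and Clip3 (r = 0.83), and for Nes they were Mcl1 (r = 0.90), Gab2 (r = 0.87) and Nav2 (r = 0.87). For Synm they were Gmcl1 (r = 0.93), Lrif1 (r = 0.90) and Fbxo8 (r = 0.87), and for Plec they were Shroom3 (r = 0.81), Prrc2a (r = 0.80) and Odf2 (r = 0.78). Between the members themselves r was lower, at 0.26 for Gfap and Vim, which put Vim at rank 2415 of 8925 in likeness to Gfap, -0.37 for Gfap and Nes, -0.34 for Vim and Nes and 0.40 for Vim and Plec. These r are descriptions of libraries that share 3 dates.

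Contact with neurons gave no called change in any of the 5 genes. In the edgeR fit with 6 group means, co-culture against alone called 0 of 16539 genes, or 0.0%, at day 2, day 4, day 7 and on the average of the days, with 388, 61, 1549 and 689 genes at an unadjusted p under 0.05. DESeq2 called 22, 0, 5 and 0 genes, and no member. Of the members, Nes at day 7 had the smallest p.

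Nes was lower in co-culture at day 7 in 3 of 3 pairs. It had 300.4, 361 and 416 CPM in replicates 1, 2 and 3 of the co-culture, and 781, 879.8 and 1089.9 CPM in replicates 1, 2 and 3 of astrocytes alone, so the groups did not overlap. The fitted log2 fold change was -1.35 (SE 0.42, unadjusted p = 0.0044, edgeR adjusted p = 0.47), and with the replicate number as a block it was -1.34 (SE 0.35, edgeR adjusted p = 0.56). It was -1.29 (SE 0.45) over the 16 libraries. At day 2 Nes had 947, 461 and 838 CPM in co-culture and 1035, 485 and 763 CPM in astrocytes alone. At day 4 it had 835, 504 and 460.3 CPM in co-culture and 1245, 465 and 702 CPM in astrocytes alone. The groups overlapped at both earlier days, and the log2 fold changes were -0.02 (SE 0.41) at day 2 and -0.42 (SE 0.41) at day 4. The effect at day 7 minus that at day 2 was -1.34 (SE 0.58, unadjusted p = 0.034, edgeR adjusted p = 0.89). Over the 9 pairs Nes averaged -0.58 ± 0.64 on the log2 scale (SD, n = 9) and was lower in 7 of 9 (exact two-sided sign-flip permutation p = 0.039, 0.10 adjusted over 8 measures). Without the 2 outlying libraries Nes averaged -0.55 over 7 pairs (exact permutation p = 0.11, 0.29 adjusted). The pairs of a date are not shown to be independent. Here and below, p over the pairs therefore describes these cultures, not independent repeats.

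Markers of other cells were read beside this difference at day 7, and none was called. Of 14 tested microglia and macrophage markers 14 were positive at day 7 and 0 were called, with a median log2 difference of 2.40 against 0.00 over all genes. Their sums were 256, 435 and 9.61 CPM in replicates 1, 2 and 3 of the co-culture and 6.16, 213 and 10.9 CPM in those of astrocytes alone, so replicate 3 ran the other way. Without the 2 outlying libraries 14 of 14 were positive and 0 called, with a median of 2.79. Of 11 tested neuron markers 9 were positive and 0 called, with a median of 1.32. The sums of these neuron markers were 293, 203 and 224 CPM in co-culture and 163, 301 and 198 CPM in astrocytes alone, lower in co-culture in replicate 2. Snap25, Nefl, Nefm and Gad2 had no read in astrocytes alone at day 7. Fibroblast and mural markers summed to 72.3, 258 and 290.1 CPM in co-culture and 168, 500.4 and 296 CPM in astrocytes alone, lower in co-culture in 3 of 3 pairs. Gene by gene that list ran the other way, with 8 of 12 tested markers positive, 4 negative and 0 called. Its median log2 difference was 0.15, and 0.23 without the 2 outlying libraries. The part of these cells in the difference of Nes was not tested.

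Gfap had no common direction with neurons. The average fitted log2 difference over the days was 0.21, with a 95% interval of -1.10 to 1.52, and with the block it was 0.26 (SE 0.21). Within dates, however, the sign was shared by all 3 days. Gfap was higher in co-culture in 3 of 3 pairs of replicate 1, by 0.40 to 1.17 on the log2 scale, and in 3 of 3 pairs of replicate 3, by 0.24 to 0.35. It was lower in 3 of 3 pairs of replicate 2, by -0.24 to -0.08. The pairs of replicate 1 at day 2 and day 7 each hold 1 of the outlying libraries, and the remaining pair, at day 4, gave the 1.17. Over the 9 pairs the mean was 0.31 ± 0.47 (SD, n = 9, exact permutation p = 0.078, 0.16 adjusted). Without the 2 outlying libraries the mean was 0.19, with 4 of 7 pairs higher in co-culture (exact permutation p = 0.36, 0.54 adjusted). The largest of the 9 pair differences of Gfap was 1.17, against date differences of 1.64 to 3.61 for the same gene.

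Vim had 3472, 4865 and 3156 CPM in co-culture and 2111, 3749.9 and 3981 CPM in astrocytes alone at day 2. At day 4 it had 3185, 4315 and 2768 CPM in co-culture and 2288, 3344 and 2707 CPM in astrocytes alone, higher in 3 of 3 pairs though the groups overlapped. At day 7 it had 969, 3272 and 2987 CPM in co-culture and 1496, 3021 and 3308 CPM in astrocytes alone. The fitted log2 fold changes were 0.22 (SE 0.47), 0.30 (SE 0.47) and -0.11 (SE 0.47), all within the spread between replicates. Relative to Nes, Vim reads were higher in co-culture in 8 of 9 pairs, by 0.69 ± 0.57 on the log2 scale (SD, n = 9, exact permutation p = 0.0156, 0.10 adjusted), and Gfap reads in 7 of 9, by 0.89 ± 0.79 (SD, n = 9, exact permutation p = 0.027, 0.10 adjusted). Without the 2 outlying libraries Vim relative to Nes averaged 0.65, higher in 6 of 7 pairs (exact permutation p = 0.0625, 0.29 adjusted). Gfap relative to Nes then averaged 0.75, higher in 5 of 7 pairs (exact permutation p = 0.11, 0.29 adjusted). Over all 9 pairs Gfap relative to Vim averaged 0.20 ± 0.56 (SD, n = 9, exact permutation p = 0.30).

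Plec lay on opposite sides of astrocytes alone at day 2 and day 7. At day 2 it had 487, 594 and 560.3 CPM in co-culture and 336, 470.0 and 393 CPM in astrocytes alone, higher in 3 of 3 pairs without overlap, with a log2 fold change of 0.44 (SE 0.29). At day 4 it had 338, 391 and 472 CPM in co-culture and 445, 386 and 421 CPM in astrocytes alone, which overlapped. At day 7 it had 190.5, 308 and 268 CPM in co-culture and 309.7, 371 and 414 CPM in astrocytes alone, lower in 3 of 3 pairs without overlap, with a log2 fold change of -0.51 (SE 0.28). Neither was called by edgeR, and the effect at day 7 minus that at day 2 was -0.96 (SE 0.40, unadjusted p = 0.028, edgeR adjusted p = 0.89). Without the 2 outlying libraries Plec stood at 0.34 (SE 0.26) at day 2 and -0.39 (SE 0.26) at day 7. The effect at day 7 minus that at day 2 was then -0.73 (SE 0.37). The 13 plakins and linkers, a list that does not hold Plec, had 11 positive log2 differences at day 2 (median 0.21, against 0.04 over all genes) and 10 negative ones at day 7 (median -0.47, against 0.00 over all genes), with 0 called at either day. Parp10 overlaps Plec on the same strand and had at most 3264 reads in a library, so shared reads cannot be told apart.

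Synm rested on 1 library at day 7. It had 34.7, 17.8 and 42.2 CPM in co-culture and 74.0, 40.7 and 49.4 CPM in astrocytes alone at day 2, lower in 3 of 3 pairs, with the 74.0 CPM resting on 11 reads. At day 4 it had 60.0, 46.6 and 52.1 CPM in co-culture and 45.0, 50.2 and 62.0 CPM in astrocytes alone. At day 7 it had 212, 71.8 and 29.4 CPM in co-culture and 43.9, 63.8 and 59.9 CPM in astrocytes alone. The 212 CPM came from replicate 1, which is an outlying library. Without the 2 outlying libraries the log2 fold change at day 7 was -0.19 (SE 0.38), against 0.90 (SE 0.50) with them. Ttc23 overlaps Synm on the opposite strand and had up to 1062 reads in a library, and whether the counting used the strand is not given in the sources used here.

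**Figure D4:**
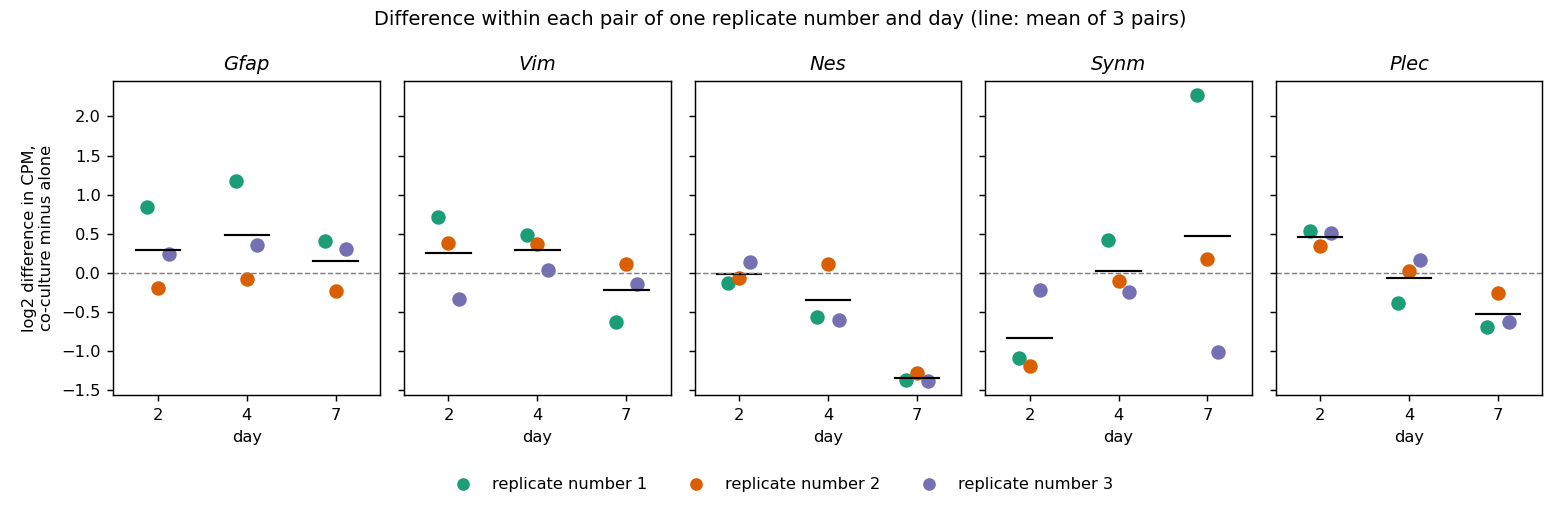
Log2 difference in CPM, co-culture minus alone, for each pair of 1 replicate number (colour) and day (horizontal axis), with the mean of 3 pairs as a line. Nes at day 7 lies at -1.39 to -1.29 in all 3 pairs, Plec passes from above 0 at day 2 to below 0 at day 7, and the Gfap pairs of replicate 2 lie below 0 at every day while those of replicates 1 and 3 lie above it.

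Time in culture gave 0 of 16539 called genes, or 0.0%, in day 7 against day 2 with edgeR, both in co-culture (2181 genes at an unadjusted p under 0.05) and in astrocytes alone (183 genes), while DESeq2 called 248 and 3 genes. In co-culture Plec was lower at day 7 than at day 2, at 256 ± 59.8 CPM at day 7 and 547 ± 54.8 CPM at day 2 (SD, n = 3 each), with a log2 fold change of -1.10 (SE 0.29, unadjusted p = 0.0012, edgeR adjusted p = 0.27). DESeq2 called it (log2 fold change -1.03, adjusted p = 0.011). Synm in co-culture was 1.72 (SE 0.51) above day 2 with edgeR (adjusted p = 0.27) and was called by DESeq2 (1.88, adjusted p = 0.043), and without the 2 outlying libraries and with the block it was 0.70 (SE 0.40). Nes in co-culture was at -1.06 (SE 0.41, edgeR adjusted p = 0.30) and in astrocytes alone at 0.28 (SE 0.41). Gfap was higher at day 7 than at day 2 in replicates 1 and 3 of both kinds of culture and lower in replicate 2 of both, and its log2 fold changes were 0.34 (SE 1.16) in co-culture and 0.25 (SE 1.16) in astrocytes alone.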

How the data were processed

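The authors deposited raw read counts per Entrez gene for 18 libraries. The submitters' processing notes name Subread, featureCounts and the build mm9, with no version. A strand setting is not given in the sources used here. The deposited table also held 17 columns with no sample's values, which were not used. Columns were matched to samples by name. Symbols came from RefSeq (24191 of 26301 identifiers), merged exon lengths from GENCODE M21 and promoter windows from RefSeq, both on GRCm38.

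Counts were tested in R 4.3.3 by edgeR 4.0.16 (quasi-likelihood F test) in a model of 6 group means fitted to all 18 libraries, with TMM scaling, filterByExpr by group and a Benjamini-Hochberg adjusted p under 0.05 over 16539 genes. Dates were compared in the same model with the replicate number as a term. Pair differences used log2 CPM with a prior count of 2. Ratios of reads, pair differences and correlations were tested by exact permutation in SciPy. The procedure was tested on simulated counts. DESeq2 1.42.0 was an alternative.

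Each replicate number has 1 date in the labels for its 6 libraries, and the numbers therefore pair the samples. Residuals about the group means had correlations of 0.108 to 0.469 within a number and day, and of -0.346 to -0.0102 across numbers. The residuals of a group cancel out, so positive values within a number bring negative ones across numbers on balance. The negative range therefore adds nothing separate. No label says that replicates are separate animals. The p-values then reflect only how far these cultures spread, which may be technical.

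The 5 members, the 11 gene lists with 172 entries and the 2 outlying libraries were chosen with earlier results of these data known. Up to 3 genes per list are named, those with the highest mean level, with any called gene, and up to 3 genes most like each member, of which 1 is not reported here. Summed list levels are over tested genes. The tests of ratios between dates were added after seeing the data. The interval of a read count covers counting error only, and that of the log2 difference of Gfap comes from the SE of the edgeR fit.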

Additional observations from a re-analysis of the deposited data

Results flagged for a closer look

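In 4 results the co-culture difference had opposite signs in pairs of different dates, and none of these contrasts between dates was tested. Gfap averaged 0.80 on the log2 scale in the pairs of replicate 1 and 0.30 in those of replicate 3, higher in co-culture in 3 of 3 pairs each, and -0.17 in those of replicate 2, lower in 3 of 3. Gfap relative to Vim averaged 0.61 in replicate 1 and 0.45 in replicate 3, again higher in 3 of 3 pairs each, and -0.46 in replicate 2, lower in 3 of 3. A ratio within a library does not depend on library scaling, so the signs of Gfap relative to Vim are the same under every scaling. In replicate 1 the pairs of day 2 and day 7 each hold an outlying library.

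Nes had a library far from the other 5 of its date in 2 of 3 dates. Replicate 1 of the day 7 co-culture, an outlying library, was lowest in replicate 1 at 300.4 CPM. Astrocytes alone at day 7, at 879.8 CPM, were highest in replicate 2. Both values are also part of the day 7 difference of Nes given above. Chance flags about 1 in 20 such groups of libraries, and these 6 libraries differ by day and by the presence of neurons.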

How the results depend on the processing

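The call of Gfap between dates held in all 23 settings run, at rank 1 to 6 of the tested genes with edgeR adjusted p of at most 7.89e-05, and no other member was called between dates in any of them (lowest edgeR adjusted p 0.079, for Nes). The count of genes called across dates was 953, and 1526 without the 2 outlying libraries. Leaving out single libraries gave 568 to 1630, with replicate 3 of the co-culture left out at day 2 for the lowest, and replicate 1 of the co-culture left out at day 7 for the highest.

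With the replicate block edgeR called 1 gene at day 7 and 1 in day 7 over day 2 in co-culture, neither of them a member, and the block changed no other call. Without the 2 outlying libraries and with the block it called 16 genes at day 2, 18 at day 7, 17 in day 7 over day 2 alone, 17 in the same contrast in co-culture, and 14, 23 and 15 in the 3 differences of effects between days (4 over 2, 7 over 2 and 7 over 4), again no member. DESeq2 called 22 and 5 genes at day 2 and day 7, 3 and 248 in day 7 over day 2 alone and in co-culture, and 3 in the difference of effects of day 7 and day 2. Leaving out replicates gave 0 to 1 genes for that difference, the 1 without replicate number 2. The cause was not tested.

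Uncalled values of the members changed sign 104 times over the alternatives, 75 of them on leaving out a library or replicate number. Without the 2 outlying libraries the sign turned for Gfap -0.40 at day 2, Vim -0.011 at day 2, Nes 0.26 at day 2, Vim 0.20 at day 7, Synm -0.19 at day 7, Synm -0.24 for the average of days, Gfap -0.17 for day 7 over day 2 alone, Vim 0.22 for the difference of effects, Synm 0.022 for replicate 2 over 1, Synm 0.12 for replicate 3 over 1 and Plec 0.0075 for replicate 3 over 2. Without them and with the replicate block the sign turned for Gfap -0.012 at day 2, Nes 0.047 at day 2, Gfap -0.20 at day 7, Vim 0.10 at day 7, Synm -0.19 at day 7, Synm -0.23 for the average of days and Gfap -0.19 for the difference of effects. With the replicate block on 18 libraries the sign turned for Synm -0.022 at day 4 and Synm -0.013 for the average of days. With median-ratio scaling the sign turned for Synm -0.029 at day 4 and Plec 0.029 for replicate 3 over 2. With upper-quartile scaling the sign turned for Synm -0.050 at day 4, Synm -0.11 for the average of days, Gfap -0.0052 for the difference of effects and Plec 0.030 for replicate 3 over 2. Without the filter the sign turned for Synm -0.013 at day 4 and Plec 0.041 for replicate 3 over 2. With DESeq2 the sign turned for Synm -0.029 at day 4. Outside that count, the co-culture effect at day 7 minus that at day 4 turned without the outlying libraries to 0.29 for Gfap and -0.19 for Synm, against -0.068 and 0.89 with all 18. On leaving out replicates, Gfap ran from -1.13 to 1.14 for day 2, -0.99 to 1.42 for day 4, -1.33 to 1.44 for day 7, -0.33 to 0.62 for the average of days, -0.97 to 1.27 for day 7 over day 2 alone, -1.12 to 1.60 for day 7 over day 2 in co-culture and -1.43 to 1.34 for the difference of effects. Vim ran from -0.019 to 0.49 for day 2, -0.49 to 0.24 for day 7, -0.028 to 0.26 for the average of days and -0.68 to 0.018 for the difference of effects. Nes ran from -0.30 to 0.25 for day 2 and -0.74 to 0.036 for day 4. Synm ran from -0.19 to 0.17 for day 4, -0.35 to 1.39 for day 7, -0.38 to 0.18 for the average of days, -0.16 to 0.52 for day 7 over day 2 alone and -0.56 to 0.064 for replicate 3 over 1. Plec ran from -0.19 to 0.091 for day 4, -0.13 to 0.012 for the average of days, -0.27 to 0.017 for day 7 over day 2 alone and -0.050 to 0.12 for replicate 3 over 2. Of the means over pairs, Synm ran from -0.44 to 0.078 and Plec ran from -0.085 to 0.023 and Gfap/Vim ran from -0.0056 to 0.53 without each replicate number. Against TMM, upper-quartile scaling moved the median gene by at most 0.15 on the log2 scale. It turned the mean of Vim over the pairs to -0.039, and it left r of Gfap and Nes in replicate 1 at -0.75 (exact permutation p adjusted over 6 relations = 0.24, against 0.0417 with TMM). Without the outlying libraries that r was -0.99 over 4 libraries (exact p adjusted = 0.25). Ratios between dates, a test added after seeing the data, kept their direction without the outlying libraries.

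Depth limits Gfap, Synm and Plec most in replicate 1 of astrocytes alone at day 2, where they had 9, 11 and 50 reads.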
